A study of Azumapecten farreri with 9 samples.

Results

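Testis-specific serine/threonine kinases are a small family of protein kinases that attach phosphate groups to serine and threonine residues. In mammals they are made almost only in spermatids and sperm, the cells that follow meiosis in the testis, where mouse members are needed for shaping the sperm head and tail and for male fertility. They belong to the same broad branch of kinases as the AMP-activated and calmodulin-dependent kinases and, in mammals, depend on the chaperone HSP90 for stability. Their transcripts are described here in hemocytes, the circulating immune cells of molluscs, where no such role is known.

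The members are the 5 genes, of 21617 in the deposited table, whose description names a testis-specific serine/threonine-protein kinase. They were chosen by this name and by their measured expression across the 3 title groups, which was known when they were picked, so their levels and changes below are a description and carry no test. All 5 names come from the Yesso scallop, Mizuhopecten yessoensis, per the tag of their descriptions. The 9 libraries hold poly(A) RNA of hemocytes of the Zhikong scallop (labelled Azumapecten farreri), with 3 libraries each titled LPS_T, NOR_T and PBS. All donors had received an injection, either of PBS, the saline vehicle, or of exosomes, which are small vesicles released by cells. For the 6 libraries of exosome-injected animals, title and group label disagree. Those titled LPS_T are labelled as having received normal exosomes, and those titled NOR_T as having received exosomes from stimulation with LPS, a bacterial cell-wall component. Groups are therefore called by their titles, and no direction is assigned to LPS. No label gives strain, age, sex or gonad stage, the time after injection, or how many animals stand behind each library. The p-values below thus measure the spread between libraries, which may be technical.

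Depth was about 5130000 (PBS 1) to 11800000 (PBS 3) fragments counted on genes. Here the spacing of the low deposited counts, 3.86 to 3.96, was taken as 1 fragment. All fragment numbers below rest on this assumption, since the counter is not stated. PBS 1 stood apart. It had the lowest depth, 17.8% of its counts lay on 2 genes of scaffold38697, against at most 0.0979% elsewhere, and 9865 genes reached an FPKM of 1, against 10537 to 11341 elsewhere. Kinase changes against PBS, and the list counts that differ, are therefore also given without PBS 1. FPKM is fragments scaled to transcript length and library depth, the scale used here to set levels of different genes side by side. CPM is the count scaled to a common library size (TMM scaling) and is used to compare 1 gene between libraries. A gene was tested when it reached an FPKM of 1 in at least 3 libraries, which 11678 genes and all 5 kinases did.

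The 5 genes lie on 4 scaffolds. The kinase 3-like gene (evm.TU.scaffold34635.13) lies at positions 277626 to 279383 of scaffold34635, plus strand. The kinase 4-like gene (evm.TU.scaffold41531.8) lies at 273910 to 276959 of scaffold41531, minus strand. The kinase 1-like gene (evm.TU.scaffold63551.8) lies at 180991 to 185710 of scaffold63551, plus strand. The remaining genes form a head-to-head pair on scaffold63197. The kinase 2-like gene (evm.TU.scaffold63197.5) spans 112858 to 113580 on the minus strand, and the gene described as kinase 1-like, partial (evm.TU.scaffold63197.6) spans 113672 to 116613 on the plus strand, with 91 bases between them. In the mouse, too, Tssk1 and Tssk2 are neighbours. The genome build of these positions is not given in the sources used here.

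Counts and FPKM together imply, up to a constant for each library, the transcript length used for each value. That constant was set by assuming that genes with the commonest ratio of count to FPKM per base of span have a length equal to their span. For the kinase 3-like gene this length was 1759 bases for a span of 1758, and for the kinase 2-like gene 727 for a span of 723. On this assumption the length used was the whole span of both, which is not a measured transcript end. It was 1171 bases or 38.4% of the span for the kinase 4-like gene, 1492 bases or 50.7% for the partial kinase 1-like gene, and 869 bases or 18.4% for the kinase 1-like gene. The counted length thus left out part of the span in 3 of the 5. Each of the 5 except the partial gene carries 5 Gene Ontology terms in the table, among them protein serine/threonine kinase activity. How reads were divided between close copies is not given, so the split between the kinase 1-like and kinase 2-like genes is uncertain, and the library kit does not mark strand.

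All 5 kinases had their lowest mean level in NOR_T libraries and their highest in LPS_T libraries. Summed over the 5 genes, the kinases stood at 41.6, 38.8 and 38.7 CPM in the LPS_T libraries, at 7.04, 8.28 and 6.21 CPM in the NOR_T libraries, and at 29.5, 32.1 and 22.1 CPM in the PBS libraries. The 3 groups did not overlap in this sum. Its mean was 39.7 ± 1.61 CPM in LPS_T, 7.18 ± 1.04 in NOR_T and 27.9 ± 5.20 in PBS (SD, n = 3 libraries each). In bulk RNA, fewer cells that hold a transcript and less of it per cell cannot be told apart.

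The kinase 3-like gene gave 42.0% to 65.7% of that sum. In mammals this kinase is a late germ cell form, found in spermatids. Its level was 23.9, 18.4 and 19.9 CPM in LPS_T, 3.85, 3.63 and 2.61 CPM in NOR_T, and 19.4, 15.6 and 12.0 CPM in PBS. All 3 NOR_T libraries lay below every other library, while LPS_T and PBS overlapped, with PBS 1 inside the LPS_T range. The fitted log2 change was -2.20 (SE 0.20) for NOR_T against PBS, 0.42 (SE 0.18) for LPS_T against PBS and 2.62 (SE 0.20) for LPS_T against NOR_T. Without PBS 1, the changes against PBS were -2.03 for NOR_T and 0.56 for LPS_T.

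The kinase 4-like gene is named after a kinase that phosphorylates the outer dense fibre protein ODF2 in mouse sperm tails. It was at 11.1, 13.3 and 11.7 CPM in LPS_T, 1.71, 2.94 and 1.61 CPM in NOR_T, and 6.08, 10.1 and 5.22 CPM in PBS. Here the 3 groups were fully separate, with LPS_T above PBS and PBS above NOR_T, though PBS 2 stood close to the LPS_T libraries. Means were 12.0 ± 1.15 CPM in LPS_T, 2.09 ± 0.737 in NOR_T and 7.13 ± 2.61 in PBS. The log2 change was 0.74 (SE 0.25) for LPS_T against PBS, -1.79 (SE 0.28) for NOR_T against PBS and 2.53 (SE 0.28) for LPS_T against NOR_T, and the first 2 values were 0.63 and -1.88 without PBS 1. Leaving out PBS 2 took the first value to 1.10, so its size leans on that library.

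**Figure D1:**
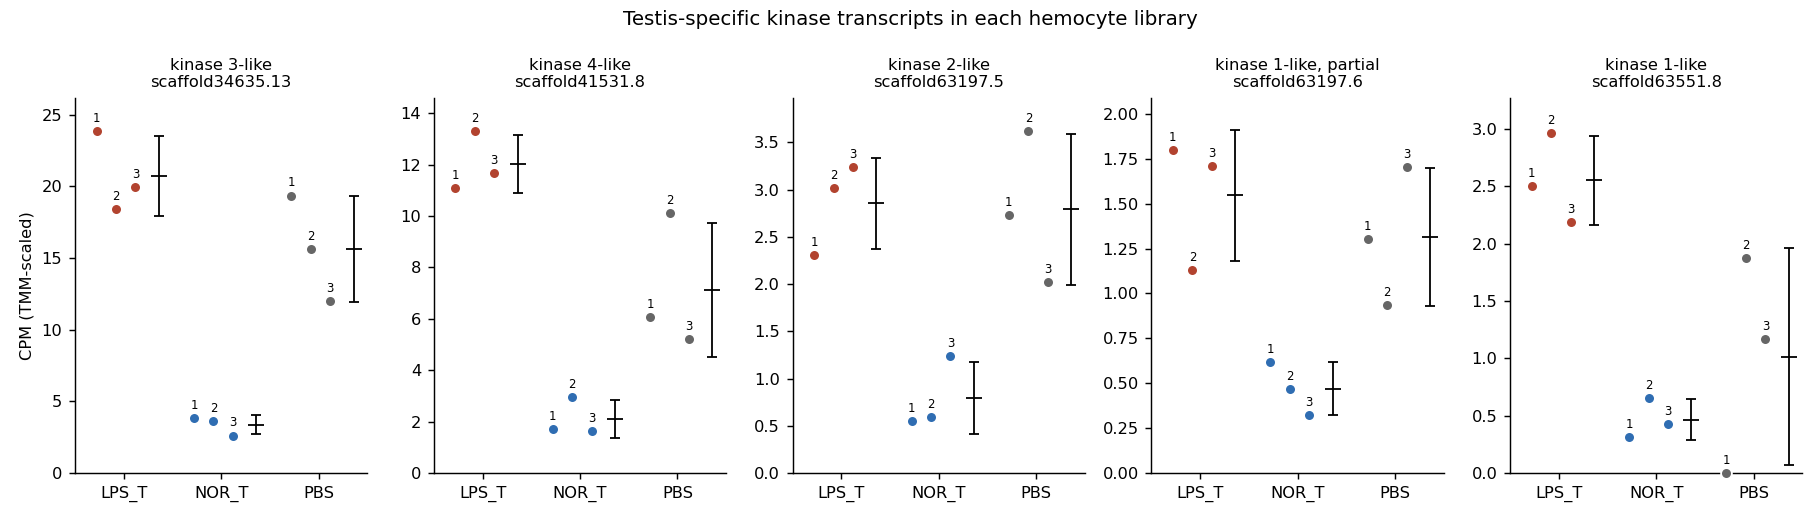
Level of each testis-specific kinase, in CPM after TMM scaling, in the libraries titled LPS_T, NOR_T and PBS. Each point is 1 library with its replicate number, and the bar beside the points gives the mean ± SD of 3 libraries. In every panel the NOR_T points lie lowest, except that PBS 1 is at 0 for the kinase 1-like gene, and each panel has its own scale starting at 0.

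The head-to-head pair was lower in level. The kinase 2-like gene stood at 2.31, 3.01 and 3.24 CPM in LPS_T, 0.547, 0.594 and 1.24 CPM in NOR_T, and 2.73, 3.62 and 2.02 CPM in PBS. NOR_T lay below the other 2 groups, which overlapped and had nearly the same mean, 2.86 ± 0.484 CPM in LPS_T and 2.79 ± 0.801 in PBS. The log2 change was 0.03 (SE 0.38) for LPS_T against PBS, -1.81 (SE 0.40) for NOR_T against PBS and 1.84 (SE 0.40) for LPS_T against NOR_T. Without PBS 1 the first value was -0.01 and the second -1.82. The NOR_T values rest on about 5.9, 4.8 and 11.9 fragments.

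Its partner, the partial kinase 1-like gene, was at 1.80, 1.13 and 1.71 CPM in LPS_T, 0.619, 0.469 and 0.323 CPM in NOR_T, and 1.30, 0.936 and 1.70 CPM in PBS. It passed the filter with LPS_T 1, LPS_T 3 and PBS 3 alone, the smallest number of libraries that qualifies, and about 3.1 to 6.7 fragments carry each NOR_T value. LPS_T and PBS overlapped and NOR_T lay below both. The log2 change was 0.23 (SE 0.48) for LPS_T against PBS, -1.47 (SE 0.50) for NOR_T against PBS and 1.71 (SE 0.50) for LPS_T against NOR_T, with 0.20 and -1.47 against PBS when PBS 1 was left out. Over the 9 libraries the pair's log2 CPM had a Pearson r of 0.70. The kinase 3-like and 4-like genes, on separate scaffolds, had 0.94. The pair has far fewer fragments, and the counting error this brings can by itself lower r. These values therefore do not show that the pair varies less together.

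The second kinase 1-like gene, on scaffold63551, followed another course within PBS. It was at 2.50, 2.97 and 2.19 CPM in LPS_T, 0.309, 0.656 and 0.430 CPM in NOR_T, and 0, 1.87 and 1.17 CPM in PBS. PBS 1 had no count, which at its depth allows up to 0.722 CPM (3 fragments, counting error only), a bound above each NOR_T value. LPS_T lay above both other groups, and NOR_T and PBS overlapped through PBS 1 alone. The log2 change was 1.24 (SE 0.68) for LPS_T against PBS, -1.22 (SE 0.73) for NOR_T against PBS and 2.46 (SE 0.73) for LPS_T against NOR_T. Without PBS 1 the changes against PBS were 0.72 for LPS_T and -1.71 for NOR_T, and without PBS 2 they were 1.92 and -0.54. The difference from PBS in this gene is thus set by single PBS libraries.

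**Figure D2:**
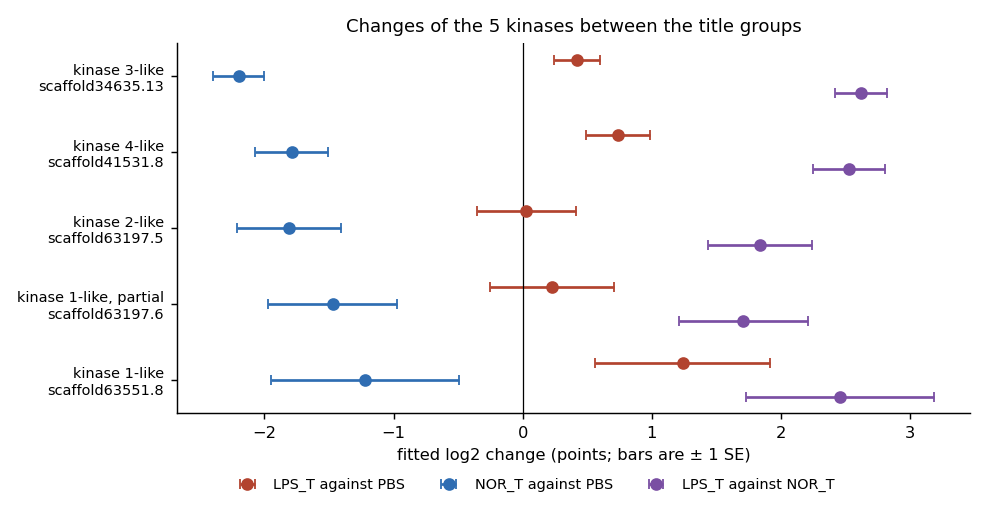
Fitted log2 change of each kinase in 3 contrasts, LPS_T against PBS, NOR_T against PBS and LPS_T against NOR_T, from the edgeR model over all 9 libraries. Points are estimates and bars ± 1 SE. All 5 values of NOR_T against PBS lie below 0 and all 5 of LPS_T against NOR_T above 0, while the values of LPS_T against PBS run from 0.03 to 1.24.

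By the median over the family, LPS_T stood closer to PBS than NOR_T did. The CPM ranges of LPS_T lay wholly above those of PBS in 2 of the 5 kinases, beside 24.7% of all tested genes. NOR_T lay wholly below PBS in 4 of the 5, beside 19.6% of tested genes, and LPS_T wholly above NOR_T in 5 of the 5, beside 20.7%. The median log2 change of the 5 was 0.42 for LPS_T against PBS, -1.79 for NOR_T against PBS and 2.46 for LPS_T against NOR_T, where the median of all tested genes was 0.03, -0.00211 and -0.0047. Because the genes were chosen with these contrasts known, the counts describe the family and support nothing further, and both contrasts with PBS share the same PBS libraries.

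Per transcript length, the order of the kinases by mean level was the same in the 3 groups. In LPS_T the mean FPKM was 11.8 ± 1.66 for the kinase 3-like gene, 10.2 ± 0.827 for the kinase 4-like, 3.93 ± 0.718 for the kinase 2-like, 2.93 ± 0.370 for the kinase 1-like and 1.04 ± 0.264 for the partial kinase 1-like gene. The first 2 overlapped in their libraries, as did the third and the fourth. In NOR_T the means ran from 1.87 ± 0.386 to 0.307 ± 0.101 FPKM, and in PBS from 7.73 ± 1.09 to 0.778 ± 0.305. In both of these groups each gene overlapped with the next in order, except the third and the fourth, which were separate by a narrow margin. FPKM is not TMM-scaled, so that values of PBS 1 stand lower on this scale than in CPM.

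Set among all tested genes of the same library, the kinase 3-like gene ranked at percentiles 67.0 to 72.7 of FPKM in LPS_T, 17.3 to 26.5 in NOR_T and 57.4 to 68.8 in PBS. The kinase 4-like gene ranked at percentiles 65.0 to 69.1 in LPS_T, 15.5 to 31.2 in NOR_T and 45.7 to 63.2 in PBS. These 2 transcripts were thus of middling abundance for hemocyte RNA in LPS_T and PBS, and among the low ones in NOR_T. The partial kinase 1-like gene stood at percentiles 1.51 to 10.04 over the 9 libraries.

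Within a group, no library was uniformly high or low. PBS 2 was the highest PBS library for 3 of the 5 kinases and PBS 3 the lowest for 3 of the 5, while PBS 1 was the highest for the kinase 3-like gene and the lowest for the kinase 1-like gene. Across 9 libraries, which share their depth and group, the Pearson r of log2 CPM was 0.70 to 0.94 in the 6 pairs without the kinase 1-like gene of scaffold63551, and 0.30 to 0.54 in the 4 pairs with it. The SD of that gene's log2 CPM was 2.84 in PBS, where PBS 1 had no count. It was 0.21 in LPS_T and 0.49 in NOR_T, so PBS 1 weighs heavily in its low r.

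Neighbouring genes were looked at next. The gene before the kinase 3-like gene (evm.TU.scaffold34635.12, 11465 bases away, with no known name) was at 21.1 to 25.8 CPM in LPS_T, 24.6 to 26.6 in NOR_T and 19.6 to 23.7 in PBS, with no call in any contrast (edgeR, smallest adjusted p = 0.121). The kinase 4-like gene's nearest tested neighbour was protein CBFA2T1-like (evm.TU.scaffold41531.16), a transcriptional corepressor by name, which lies 115116 bases away. It had a log2 change of -0.31 for LPS_T against NOR_T (edgeR adjusted p = 0.0026), opposite in sign to the kinase. This call was lost with library-size scaling and on unscaled FPKM (highest adjusted p = 0.412). For NOR_T against PBS its change was -0.23 (adjusted p = 0.0176), the sign of the kinase, a call lost in 7 of 18 alternatives (up to 0.823), among them without NOR_T 2, NOR_T 3 or PBS 3. For LPS_T against PBS it was -0.54 (adjusted p = 1.26e-05), again opposite to the kinase and lost on unscaled FPKM (up to 0.163). The remaining nearest genes did not pass the filter: ribosomal RNA processing protein 1 homolog A-like (evm.TU.scaffold34635.14), the undescribed evm.TU.scaffold41531.7, the uncharacterized evm.TU.scaffold63197.4, annexin A6-like (evm.TU.scaffold63551.7) and neuroendocrine convertase 2-like (evm.TU.scaffold63551.9).

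Over the 4 scaffolds, 22 of the 39 other genes were tested. For LPS_T against NOR_T, 4 were higher and 3 lower, beside 12.6% and 8.89% of all tested genes. One of the 4, singled out after its values were seen, shares the scaffold of the head-to-head pair. It is actin, cytoplasmic 1-like (evm.TU.scaffold63197.2), a gene of the actin family whose copies may share reads, at 88.3, 96.2 and 87.6 CPM in LPS_T, 28.0, 32.7 and 26.6 CPM in NOR_T, and 76.3, 81.4 and 57.0 CPM in PBS. Like the kinases it was lowest in NOR_T, with a log2 change of 1.64 (SE 0.12, adjusted p = 6.38e-08) against NOR_T in LPS_T. Beside this actin, on the side away from the pair, eukaryotic translation initiation factor 3 subunit B-like (evm.TU.scaffold63197.1), went the other way (-0.44, adjusted p = 8.19e-05, and 0.101 at most in limma on unscaled FPKM, where the call was lost).

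Partners of the kinases come next. No description matched the substrate TSKS or the TSSK6-activating co-chaperone of mammals. The chaperone heat shock protein 90 (evm.TU.scaffold41779.13) was among the abundant transcripts, at 2739 ± 75.0 CPM in LPS_T, 4305 ± 155 in NOR_T and 6911 ± 39.5 in PBS. It was lower than PBS in both exosome groups and lower in LPS_T than in NOR_T (log2 change -1.34, -0.68 and -0.65, edgeR, largest adjusted p = 2.51e-07), so that it was lowest in the group where the kinases were highest. Its client-loading partner, hsp90 co-chaperone Cdc37-like (evm.TU.scaffold18541.34), was at 149 ± 3.08 CPM in LPS_T, 164 ± 6.58 in NOR_T and 236 ± 10.4 in PBS, lower than PBS in both (-0.66 and -0.52, larger adjusted p = 7.04e-06); in NOR_T the call was lost on unscaled FPKM (highest adjusted p = 0.107). hsp70-Hsp90 organizing protein-like (evm.TU.scaffold15073.8), which links the HSP70 and HSP90 chaperones, was near 11 CPM in all groups and passed no test (smallest adjusted p = 0.544). A target of mouse TSSK4, outer dense fiber protein 2-like (evm.TU.scaffold31777.18), was looked up after values were seen; it was at 48.7 ± 0.148 CPM in LPS_T, 39.4 ± 1.92 in NOR_T and 40.6 ± 3.43 in PBS, higher in LPS_T than in NOR_T by 0.30 (adjusted p = 0.02) and not called in NOR_T against PBS (-0.04, adjusted p = 0.791). The first call was lost without any 1 of LPS_T 1, LPS_T 2, LPS_T 3, NOR_T 2 or NOR_T 3 and without TMM scaling (highest adjusted p = 0.365).

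Other genes of sperm and their precursors were then counted in lists matched by description. Some genes of the sperm lists, such as those of the flagellum, can also serve cilia. Their counts therefore do not separate sperm from other ciliated cells. Of 21 tested genes of sperm structure and the acrosome, 13 were lower and 0 higher in NOR_T than in PBS, with a median log2 change of -0.96 (12 and 0 without PBS 1), beside 13.5% lower and 11.4% higher of all tested genes. In LPS_T, 12 were higher and 2 lower than in PBS (median 0.73, 12 and 1 without PBS 1), beside 17.9% higher and 15.2% lower of all tested genes. Between LPS_T and NOR_T, 15 were higher and 1 lower (median 1.86), beside 12.6% and 8.89% of all tested genes. With no filter on low values, the median over all 26 matched genes was 0.93. Outer dense fiber protein 3-like (evm.TU.scaffold11107.24), of the casing of the sperm tail, was at 56.1 ± 2.87 CPM in LPS_T, 13.0 ± 2.08 in NOR_T and 28.9 ± 4.43 in PBS (LPS_T against NOR_T 2.11, adjusted p = 1.14e-08). Tektin-2-like (evm.TU.scaffold61233.11), a filament protein inside flagellar microtubules, was at 38.1 ± 4.57, 7.96 ± 1.46 and 19.9 ± 2.29 CPM in the same groups (2.26, adjusted p = 2.14e-08). Ropporin-1-like protein (evm.TU.scaffold23797.10), of the fibrous sheath and radial spokes, was at 38.3 ± 2.00 CPM in LPS_T, 10.6 ± 0.524 in NOR_T and 23.2 ± 3.25 in PBS.

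The wider list of genes whose description names testis or sperm was mixed. It shares 6 genes with the previous list and had 34 tested members, of which 14 were higher and 3 lower in LPS_T than in NOR_T, with a median of 0.15, beside 12.6% and 8.89% of all tested genes. Against PBS, 1 was higher and 13 lower in NOR_T, and 12 higher and 6 lower in LPS_T, which without PBS 1 became 1 and 12 in NOR_T and 8 and 4 in LPS_T. All tested genes gave 11.4% higher and 13.5% lower in NOR_T, and 17.9% and 15.2% in LPS_T, so that the 6 lower in LPS_T were a share near that of all genes. Its leading gene was the testis-specific tubulin alpha chain (evm.TU.scaffold64139.6), a microtubule subunit from a family of close copies, at 1158 ± 80.5 CPM in LPS_T, 293.6 ± 14.5 in NOR_T and 696 ± 79.7 in PBS (LPS_T against NOR_T 1.98, adjusted p = 8.91e-11). Sperm-associated antigen 6 (evm.TU.scaffold1989.134) and sperm-associated antigen 16 protein-like (evm.TU.scaffold27219.65), both of the central apparatus of the flagellum, had changes of 1.65 and 1.95. The 3 genes named here have the list's smallest adjusted p in this contrast. They do not stand for its other members, 3 of which were lower. In limma on log2(FPKM + 1) without TMM, 8 and not 13 members were lower in NOR_T than in PBS.

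Meiosis genes were counted in the same way. Of 14 tested, 9 were higher and 0 lower in LPS_T than in NOR_T (median 1.25), 7 were lower and 0 higher in NOR_T than in PBS (median -0.74), and 6 were higher and 0 lower in LPS_T than in PBS (median 0.55), the same counts as without PBS 1. The shares of all tested genes were 12.6% higher and 8.89% lower, 13.5% lower and 11.4% higher, and 17.9% higher and 15.2% lower in these contrasts. In limma on log2(FPKM + 1), 5 and not 7 were lower in NOR_T than in PBS, with a median of -0.36. Synaptonemal complex protein 3 (evm.TU.scaffold12957.16), which holds paired chromosomes, was at 22.7 ± 3.48 CPM in LPS_T, 7.85 ± 1.74 in NOR_T and 14.8 ± 1.35 in PBS. Meiosis expressed gene 1 protein homolog (evm.TU.scaffold59113.3) and HORMA domain-containing protein 1-like (evm.TU.scaffold23797.11), which marks unpaired chromosome axes, changed by 2.10 and 1.61 between LPS_T and NOR_T (larger adjusted p = 5.23e-06). The HORMA domain gene lies next to ropporin-1-like protein in the numbering of scaffold23797.

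Germ line genes mark germ cells from their origin on. Of 10 tested, 2 were higher and 0 lower in LPS_T than in NOR_T, 1 was higher and 0 lower in NOR_T than in PBS, and 5 were higher and 0 lower in LPS_T than in PBS, with medians of 0.19, 0.14 and 0.43. All tested genes gave 12.6%, 11.4% and 17.9% higher in these contrasts, so that the first 2 counts are near the share of all genes. Vasa (evm.TU.scaffold59003.45), an RNA helicase of germ cells, was at 124 ± 4.16 CPM in LPS_T, 111 ± 3.01 in NOR_T and 99.0 ± 2.66 in PBS; only LPS_T against PBS was called (0.33, adjusted p = 6.14e-04). Piwi-like protein 1 (evm.TU.scaffold64453.3), which silences transposons, was at 31.1 ± 1.90, 23.3 ± 2.24 and 21.9 ± 0.913 CPM in these groups. Protein boule-like (evm.TU.scaffold1989.167_evm.TU.scaffold1989.168), a regulator of meiosis, was at 5.95 ± 0.805 CPM in LPS_T, 2.07 ± 0.620 in NOR_T and 2.37 ± 1.30 in PBS. Both had called rises in LPS_T over NOR_T and over PBS (largest adjusted p = 0.00933), and neither was called between NOR_T and PBS. For piwi the call against NOR_T was lost in limma on unscaled FPKM (highest adjusted p = 0.163). For boule it was lost in limma on log2(FPKM + 0.1) only (adjusted p = 0.0508) and kept on log2(FPKM + 1). Without PBS 1, 4 list members were higher in LPS_T than in PBS, and 1 was lower in LPS_T than in NOR_T.

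A pair of genes of the sperm nucleus, named after their values were seen, had by far their highest values in PBS 1. Sperm-specific protein PHI-2B-like (evm.TU.scaffold61389.63), named after a DNA-packing protein of mussel sperm, was at 0.140, 0.753 and 0.753 CPM in LPS_T, 0.190, 0 and 0.296 CPM in NOR_T, and 22.3, 0.456 and 0.320 CPM in PBS. Sperm-specific H1/protamine-like protein type 2 (evm.TU.scaffold31501.8) reached 3.16 CPM in PBS 1 and at most 0.0471 CPM in the other 8 libraries. Apart from PBS 1, the PHI-2B-like gene averaged 0.549 CPM in LPS_T and 0.162 CPM in NOR_T, with PBS 2 and PBS 3 between these means. These levels are low, and LPS_T 1 overlapped with NOR_T. The H1/protamine-like gene was at or near 0 outside PBS 1, so it has no order to compare. Both genes did not pass the filter. PBS 1, which held them, was the library with no count for the kinase 1-like gene, and its summed kinase level of 29.5 CPM lay between those of the other PBS libraries. Whether the high value in PBS 1 bears on the kinases was not tested.

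**Figure D3:**
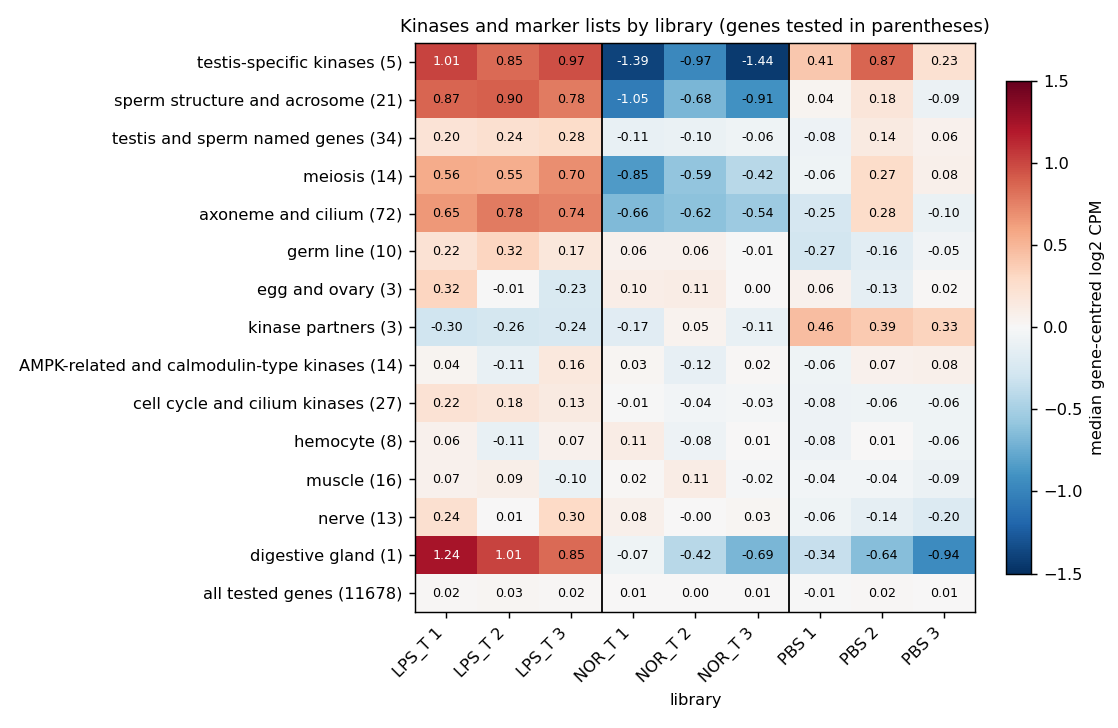
Median gene-centred log2 CPM of the 5 kinases and of 13 lists of marker and comparison genes, with the number of tested genes in parentheses, in each of the 9 libraries; red is above and blue below a gene's own mean over libraries. The kinases, sperm structure, meiosis and axoneme rows are high in LPS_T and low in NOR_T, while the hemocyte and muscle rows and the row of all tested genes stay near 0.

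Genes of the axoneme, the microtubule core shared by cilia and sperm tails, had the most tested members of these lists. Of 72 tested, 46 were higher and 0 lower in LPS_T than in NOR_T (median 1.48), and 43 were higher and 2 lower in LPS_T than in PBS (median 0.69, 40 and 1 without PBS 1), beside 12.6% and 8.89%, and 17.9% and 15.2%, of all tested genes. In NOR_T, 33 were lower and 3 higher than in PBS (median -0.54), beside 13.5% and 11.4% of all tested genes. These counts were 35 and 3 without PBS 1, and 17 and 0 (median -0.25) in limma on log2(FPKM + 1). The summed level of the matched axoneme genes was 1301 to 1367 CPM in LPS_T, 534 to 561 in NOR_T and 732 to 955 in PBS. The axonemal-like dynein heavy chain 7 gene (evm.TU.scaffold59337.30), an inner-arm motor, was at 31.2 ± 2.26 CPM in LPS_T, 4.72 ± 0.543 in NOR_T and 18.0 ± 2.94 in PBS, and the cilia- and flagella-associated proteins 57-like (evm.TU.scaffold59003.17) and 54-like (evm.TU.scaffold37909.9) changed by 2.23 and 1.96 between LPS_T and NOR_T. Since ciliated epithelium also uses these genes, they do not separate sperm from other ciliated cells, and their part in the kinase values was not tested. A dynein beta chain of the flagellar outer arm (evm.TU.scaffold34635.4), on the scaffold of the kinase 3-like gene and named after its values were seen, was at 22.6 ± 0.541 CPM in LPS_T, 16.3 ± 2.18 in NOR_T and 7.82 ± 0.577 in PBS, higher than PBS in NOR_T too (1.06, adjusted p = 2.84e-05, lost on unscaled FPKM at 0.146).

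Other kinases of the same branch were counted next. Of 14 tested AMPK-related and calmodulin-type kinases, 1 was higher and 0 lower in LPS_T than in NOR_T (median 0.05). Compared with the PBS group, 2 were higher and 2 lower in NOR_T (median -0.10), and 3 higher and 5 lower in LPS_T (median -0.09). Without PBS 1 the 3 contrasts, in this order, had 1 and 1, 2 and 2, and 2 and 5 genes higher and lower. All tested genes gave 12.6% and 8.89%, 11.4% and 13.5%, and 17.9% and 15.2%. In limma on log2(FPKM + 1), 2 of the 14 were higher and 0 lower in LPS_T than in PBS, and 0 higher and 1 lower in NOR_T. The 1 that differed was serine/threonine-protein kinase MARK2-like (evm.TU.scaffold51371.4), a regulator of microtubules and cell polarity, at 7.71, 8.55 and 7.83 CPM in LPS_T, 1.14, 1.28 and 1.72 CPM in NOR_T, and 6.45, 6.69 and 4.94 CPM in PBS. NOR_T lay far below the other 2 groups in this gene, with changes of -2.12 for NOR_T against PBS (adjusted p = 7.22e-06), 0.42 for LPS_T against PBS (adjusted p = 0.149) and 2.54 for LPS_T against NOR_T (adjusted p = 7.48e-07). SNF-related serine/threonine-protein kinase-like (evm.TU.scaffold45061.4) was at 41.4 ± 0.358, 48.0 ± 0.784 and 55.0 ± 2.06 CPM in LPS_T, NOR_T and PBS, lower in LPS_T than in PBS (-0.41, adjusted p = 6.4e-04), a call lost without TMM scaling (highest adjusted p = 0.461). The calcium/calmodulin-dependent protein kinase type II delta chain-like gene (evm.TU.scaffold16535.72) was at 151 ± 10.3 CPM in LPS_T, 130.5 ± 14.1 in NOR_T and 125 ± 16.2 in PBS.

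Among 27 tested kinases of the cell cycle and cilium, 4 were higher and 3 lower in LPS_T than in NOR_T, 4 and 4 in NOR_T against PBS, and 7 and 3 in LPS_T against PBS, with medians of 0.23, 0.02 and 0.27. For all tested genes these shares were 12.6% and 8.89%, 11.4% and 13.5%, and 17.9% and 15.2%, and the list's first 2 pairs of counts lie near them. Without PBS 1, 4 were lower in LPS_T than in NOR_T and 3 lower in NOR_T than in PBS, and in limma on log2(FPKM + 1) 0 were lower than PBS in either group. Cyclin-dependent kinase-like 5 (evm.TU.scaffold17795.80), of a family that controls cilium length, was at 14.7 ± 1.13 CPM in LPS_T, 3.43 ± 1.25 in NOR_T and 5.73 ± 1.59 in PBS (LPS_T against NOR_T 2.10, adjusted p = 1.11e-05). Probable serine/threonine-protein kinase nek3 (evm.TU.scaffold24805.10) was higher than PBS in both exosome groups, by 1.35 in LPS_T and 0.75 in NOR_T. Serine/threonine-protein kinase PLK1-like (evm.TU.scaffold11157.9), a kinase of cell division, was lower in LPS_T than in NOR_T (-0.30, adjusted p = 0.00762), a call lost without TMM scaling (highest adjusted p = 0.351).

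Marker lists of hemocytes and other tissues gave the background of the samples. The hemocyte list matched 14 genes, all integrins, peroxidasins or Hemocytin, and 8 were tested. Its summed level was 1613 to 1658 CPM in LPS_T, 1513 to 1663 in NOR_T and 1430 to 1535 in PBS, and its median log2 change between LPS_T and NOR_T was 0.03. Compared with the PBS group, 1 of the 8 was higher in NOR_T and 1 in LPS_T, with or without PBS 1, beside 11.4% and 17.9% of all tested genes. Integrin beta-6-like (evm.TU.scaffold6257.37), an adhesion receptor chain, was at 569.6 ± 23.1 CPM in LPS_T, 546 ± 18.3 in NOR_T and 561 ± 4.54 in PBS. Integrin alpha-V-like (evm.TU.scaffold39453.22) was not called in any contrast, while peroxidasin homolog (evm.TU.scaffold64279.168), an extracellular peroxidase, was higher than PBS in both exosome groups (0.76 and 0.61). Hemocytin (evm.TU.scaffold48779.27), a clotting and adhesion protein of insect hemocytes that did not pass the filter and was named after its values were seen, averaged at most 0.124 CPM in any group.

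Of 16 muscle genes, 1 was higher and 1 lower in LPS_T than in NOR_T, 2 and 1 in NOR_T against PBS, and 3 and 1 in LPS_T against PBS, with or without PBS 1. The corresponding shares of all tested genes were 12.6% and 8.89%, 11.4% and 13.5%, and 17.9% and 15.2%, so that these counts are near or below them. Their summed level was 5976 to 6653 CPM in LPS_T, 6429 to 6851 in NOR_T and 5868 to 6321 in PBS, with tropomyosin (evm.TU.scaffold36677.6), an actin-filament protein, at 1595 to 1974 CPM in the group means. Paramyosin-like (evm.TU.scaffold231.10), a thick-filament protein, was higher in LPS_T than in NOR_T (1.18, adjusted p = 0.0165), a call lost without LPS_T 2, LPS_T 3, NOR_T 1 or NOR_T 3 (up to 0.0749), and twitchin-like (evm.TU.scaffold31403.20), a giant muscle kinase, was not called (0.16, adjusted p = 0.0975). Among 13 tested nerve genes, 2 were higher and 2 lower in LPS_T than in NOR_T, 4 and 2 in NOR_T against PBS, and 3 and 3 in LPS_T against PBS, set beside the same shares. Without PBS 1, 3 were higher and 3 lower in LPS_T than in NOR_T. Their sum, 4232 to 4616 CPM in LPS_T, 2821 to 3027 in NOR_T and 2558 to 2722 in PBS, was carried by 2 genes (evm.TU.scaffold9805.18 and evm.TU.scaffold493.8) described as like a neuropeptide S receptor, of which the first was higher in LPS_T than in NOR_T by 1.38 and the second lower (-0.39, a call lost on unscaled FPKM). A neuropeptides capa receptor-like gene (evm.TU.scaffold52289.2) had 1.48, 1.91 and 1.88 CPM in NOR_T and no count in any LPS_T library.

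In the digestive gland list, 1 of 22 matched genes was tested, Endoglucanase E-4 (evm.TU.scaffold63717.3), a cellulose-cutting enzyme, at 6.90 ± 0.946 CPM in LPS_T, 2.56 ± 0.565 in NOR_T and 2.14 ± 0.451 in PBS (LPS_T against NOR_T 1.43, adjusted p = 6.12e-04). Of 3 tested egg and ovary genes, vitellogenin (evm.TU.scaffold25917.13), the yolk precursor, was at 133 ± 8.93 CPM in LPS_T, 62.8 ± 8.50 in NOR_T and 35.9 ± 5.00 in PBS. It was higher than PBS in both exosome groups (1.90 and 0.82, edgeR, larger adjusted p = 5.1e-05). NOR_T libraries thus had more of this egg transcript and less of the kinases than PBS. In the other contrasts the direction was shared, as LPS_T had the highest means of both (vitellogenin 1.08 against NOR_T, adjusted p = 1.67e-06). Zona pellucida sperm-binding protein 4 (evm.TU.scaffold61329.75), of the egg coat family, was lower in LPS_T than in NOR_T by a small margin (-0.21, adjusted p = 0.0446), a call lost in 10 of 18 alternatives, among them each left-out LPS_T 1, LPS_T 3, PBS 3 and NOR_T library. The oocyte zinc finger protein XlCOF29-like (evm.TU.scaffold5663.1) was not called in any contrast. The part of any of these cell types in the kinase values was not tested.

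Finally, tested genes with a description were ranked by the Pearson r of their log2 CPM, over the 9 libraries, with the mean centred log2 CPM of the 5 kinases. The 10 highest had r from 0.981 to 0.992. They were 3 genes of cilia, dynein intermediate chain 3, ciliary-like (evm.TU.scaffold63395.33), dynein heavy chain 3, axonemal-like (evm.TU.scaffold27281.23) and protein Flattop homolog (evm.TU.scaffold53875.3), the last a basal-body protein, Hemicentin-1 (evm.TU.scaffold55315.19), a matrix protein, a phosphodiesterase 10A-like gene (evm.TU.scaffold15027.33), which degrades cyclic nucleotides, and 5 genes of no known name. The highest of all was the hypothetical evm.TU.scaffold60879.16, at 21.6 ± 2.15 CPM in LPS_T, 5.58 ± 0.770 in NOR_T and 13.7 ± 3.19 in PBS. The other hypothetical or uncharacterized genes were evm.TU.scaffold44835.28, evm.TU.scaffold40683.8, evm.TU.scaffold58579.6 and evm.TU.scaffold30557.3.

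**Figure D4:**
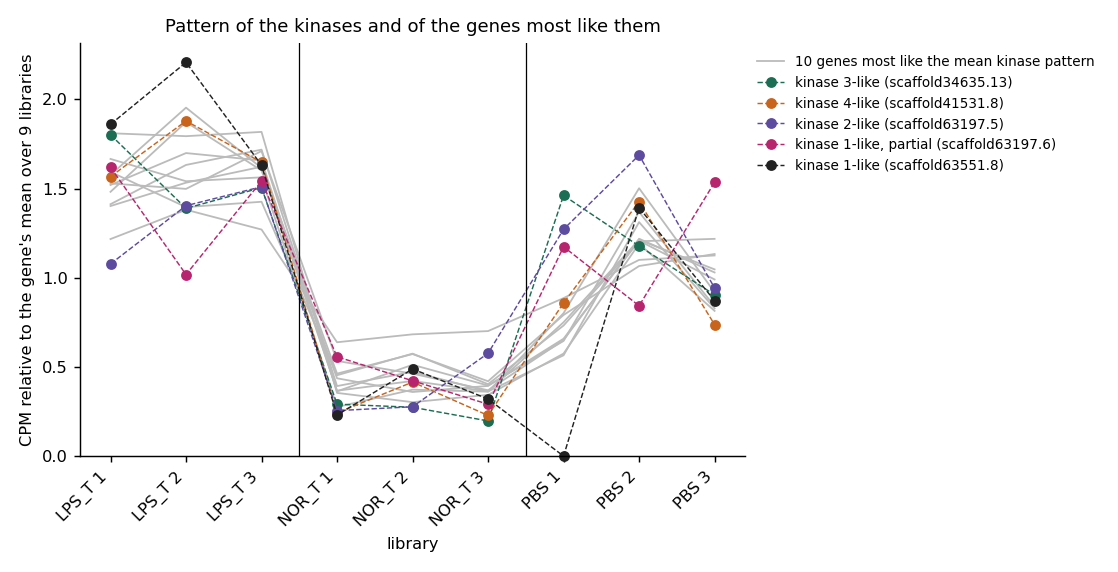
CPM of the 5 kinases (points) and of the 10 genes most like their mean pattern (grey lines), each divided by the gene's own mean over the 9 libraries, by library. Lines only join the values of 1 gene. The grey genes are high in LPS_T, low in NOR_T and lower in PBS 1 than in PBS 2, whereas the kinases themselves scatter in PBS 1 from 0 to 1.46 times their mean.

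Of 11194 genes ranked, 282 had an r of at least 0.9. Among them were 30 of 72 tested axoneme, 10 of 21 sperm structure, 6 of 34 testis or sperm named and 3 of 14 meiosis genes. The AMPK-related and the cell cycle and cilium kinases had 1 of 14 and 1 of 27. Germ line (10), hemocyte (8), muscle (16), nerve (13), egg (3), digestive gland (1) and kinase partner (3) genes had 0. At the share of all ranked genes, 0 is likely in lists this short, so it marks no contrast. The pattern comes from genes chosen on these values, so the counts only describe it. The choice of the 10 changed with the kinase 1-like gene of scaffold63551 and with PBS 1. With the pattern of the other 4 kinases, 0 of the 10 stayed among the 10 highest (their r was 0.901 to 0.967), and without PBS 1, 2 of the 10 did. Actin, cytoplasmic 1-like (evm.TU.scaffold63197.2), which lies on the scaffold of the kinase pair, was among the 10 highest in both of these alternative rankings, which were chosen after the values were seen.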

How the data were processed

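Poly(A) RNA was sequenced paired-end with a kit whose reads do not record strand, per the labels' protocols. HISAT, StringTie and edgeR are named in the submitters' processing notes, without versions. Settings, counter and genome build were not given in these sources. The authors deposited, for each gene and library, an estimated count and beside it an FPKM value, per the file headers (scaled to transcript length and depth). The estimated counts lie near multiples of 3.86 to 3.96 and were rounded to whole numbers.

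Counts were fitted with edgeR 4.0.16 (TMM scaling, quasi-likelihood test, 1 mean per title group, 9 libraries). The filter kept genes that reached 1 FPKM in 3 or more libraries, and calls were made at a Benjamini-Hochberg adjusted p under 0.05 over 11678 genes. The SE is approximate: it was worked back from the log2 change and its F statistic. The method was also run on counts simulated from its own fitted model. These had neither the spacing of the deposited counts nor an outlying library like PBS 1. The run thus does not show how the test behaves on these data. For likeness, log2 CPM had a prior count of 2.

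The members and the gene lists, matched to description text, were chosen with earlier results of these data known. Spill-over matches such as SWI/SNF or testican were removed by description. From each list the text names the 3 tested genes with the smallest adjusted p for LPS_T against NOR_T, all HSP90-type partners, the genes nearest to each kinase and the 10 genes most like the kinases; genes outside this rule are marked as chosen after their values were seen. Alternatives were other scalings and filters, DESeq2 1.42.0, limma 3.58.1 on log2(FPKM + 1) and log2(FPKM + 0.1), a replicate block and each library left out. Of the library pairs, 0 were identical. R 4.3.3, matplotlib 3.10.9 and Python 3.11.15 ran the analysis, with no reference genome.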

Additional observations from a re-analysis of the deposited data

How the results depend on the processing

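The median log2 change of the 5 kinases kept its sign in each alternative that gave a value. It ranged from 0.30 to 0.56 for LPS_T against PBS, from -1.99 to -1.56 for NOR_T against PBS and from 2.23 to 2.67 for LPS_T against NOR_T when 1 library was left out. In limma on log2(FPKM + 1), whose pseudocount is large beside levels near 1 FPKM, the last 2 medians were -1.11 and 1.38. Of 264 alternative values of single kinases, 260 kept their sign. The 4 exceptions were all of the kinase 2-like gene in LPS_T against PBS, whose values ran from -0.16 to 0.28. A filter of 6 libraries removed both kinase 1-like genes, so it gave no value for them or the median.

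Counts of called genes moved more. For LPS_T against PBS, 910 genes were lower with library-size scaling only, 584 in limma on log2(FPKM + 1) and 530 on log2(FPKM + 0.1), against 1770 with TMM. For NOR_T against PBS, these were 922, 565 and 526 lower against 1572, and the 2 limma settings gave 778 and 686 higher against 1331. For LPS_T against NOR_T, 496, 356 and 303 were lower against 1038, and log2(FPKM + 0.1) gave 908 higher against 1471. The median of all tested genes shifted by these scalings to 0.13 and 0.08 against PBS with library size only, and to 0.17 and 0.12 in limma on log2(FPKM + 1), for LPS_T and NOR_T in that order. Leaving out 1 library gave 1676 to 2108 higher and 1420 to 1838 lower genes for LPS_T against PBS, 990 to 1317 and 1266 to 1520 for NOR_T against PBS, and 1147 to 1586 and 740 to 1513 for LPS_T against NOR_T. Of 95 calls of named genes outside the family, 59 held in each alternative and 36 were lost in at least 1, with 0 changes of sign.

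Deviations of same-numbered libraries of different groups were only weakly correlated (-0.0248 to 0.0798, 0 of 9 over 0.1). Libraries with different numbers gave -0.102 to 0.0727. Of 18 best matches, 11 were with their own number, more than an even spread over the 3 candidates of each match would give. Whether the numbers pair the libraries was therefore not settled by this check. With the replicate number as a block, 2038 and 1717, 1272 and 1521, and 1438 and 985 genes were called higher and lower in the 3 contrasts in the order above, and the kinase medians were 0.43, -1.77 and 2.58.

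Depth limits the kinase 2-like and both kinase 1-like genes, which NOR_T libraries hold in about 3.1 to 11.9 fragments each, so counting error alone is large there.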

Other observations

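Another kinase of the testis by name stood outside the family. Dual specificity testis-specific protein kinase 1-like (evm.TU.scaffold64345.8), which in mammals acts on the actin regulator cofilin and is made in many tissues besides the testis, was at 11.4, 8.52 and 9.77 CPM in LPS_T, 11.4, 12.4 and 11.7 CPM in NOR_T, and 8.25, 9.14 and 11.1 CPM in PBS. LPS_T overlapped with both other groups, NOR_T lay wholly above PBS by a narrow margin, and no contrast was called (edgeR, LPS_T against NOR_T -0.25, adjusted p = 0.296; NOR_T against PBS 0.30, adjusted p = 0.188; LPS_T against PBS 0.05, adjusted p = 0.841). It was named after its values were seen.

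On the scaffold of the kinase 4-like gene, a hypothetical gene (evm.TU.scaffold41531.23), also named after its values were seen, was at 9.34, 9.06 and 8.65 CPM in LPS_T, 1.19, 1.72 and 1.88 CPM in NOR_T, and 1.30, 4.63 and 3.43 CPM in PBS. It differed in the same directions as the kinase, by 2.50 for LPS_T against NOR_T (adjusted p = 4.1e-05), -1.02 for NOR_T against PBS (adjusted p = 0.0365, a call lost in 12 of 17 alternatives, up to 0.408) and 1.48 for LPS_T against PBS (adjusted p = 0.0021).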
